A study of Mus musculus with 20 samples.

Results

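The gene set described here comprises the classical and related cadherins, the non-clustered protocadherins and the large cadherins of the Fat, Dachsous and Celsr groups. Members were chosen by mouse gene symbol alone (Cdh or Pcdh with a number, Fat1 to Fat4, Celsr1 to Celsr3, and Dchs1), which gave 43 of the 55487 genes in the count table. The 58 genes of the Pcdha, Pcdhb and Pcdhg clusters were left out by the same rule. The set falls into 5 type I cadherins, 13 type II cadherins, 5 other cadherins, 4 delta-1 protocadherins, 5 delta-2 protocadherins, 3 other protocadherins, 5 Fat and Dachsous cadherins and 3 Celsr cadherins.

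RNA was sequenced from subcerebral projection neurons, the cortical neurons that send axons to brainstem and spinal cord, of mice at postnatal day 1. Somata came from cortex, and growth cones, the tips of growing axons, came from brainstem and spinal cord. In each compartment 5 libraries were from wild-type (WT) mice and 5 were labelled KO for Bcl11b, the gene of a zinc-finger transcription factor (also called Ctip2) that these neurons express at a high level. The design asks what differs between genotypes in each compartment and between compartments in each genotype. Libraries are named below by the experiment number in their titles. WT somata had numbers 12, 14, 22, 25 and 26, somata labelled KO had 14, 15, 22, 25 and 26, and both growth cone groups had 7 to 11. The labels give neither the strain nor the exact allele, and they do not say whether libraries came from separate animals or pools, so p-values measure only the spread between these libraries.

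Cadherins are calcium-dependent adhesion molecules whose extracellular repeats bind cadherins on neighbouring cells, mostly of the same kind. Type I and type II cadherins couple to actin through catenins, delta-2 protocadherins such as Pcdh10, Pcdh17 and Pcdh19 can bind the actin-regulating WAVE complex, Fat and Dachsous cadherins bind each other as receptor and ligand, and Celsr proteins act with Frizzled receptors in planar cell polarity and in the guidance of long axon tracts. In the developing cortex different cadherins mark layers, areas and projection classes, and they act in axon fasciculation, target choice and synapse formation.

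Promoter sequences of 28 of the 43 members were found in the RefSeq table for GRCm38.p6, as 31 windows of 300 bases that start 250 bases before a transcript start and end 50 bases after it. The sequences below are shown because they belong to 4 members whose RNA differed between compartments in the same direction in both genotypes. Pcdh8 (chr14:79771263-79771562, minus strand) and Cdh6 (chr15:13173626-13173925, minus strand) were lower in growth cones, and Pcdh10 (chr3:45378148-45378447, plus strand) and Cdh22 (chr2:165234688-165234987, minus strand) were higher. These were the members of each direction with the lowest p in WT that had an entry, a choice made after the values were seen. Each is written 5′ to 3′ on the strand of its gene, with capitals at every match, on either strand, to the TATA box letters TATAAA, the CCAAT box letters CCAAT, the GC box letters GGGCGG and TGACCA, the motif known for the paralogous factor Bcl11a.
Pcdh8: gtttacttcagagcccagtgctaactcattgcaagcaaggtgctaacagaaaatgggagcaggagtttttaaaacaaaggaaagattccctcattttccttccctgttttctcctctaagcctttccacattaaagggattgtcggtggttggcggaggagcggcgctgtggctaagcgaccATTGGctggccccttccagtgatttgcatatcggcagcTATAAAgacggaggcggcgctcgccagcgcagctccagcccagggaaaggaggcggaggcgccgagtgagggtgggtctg
Cdh6: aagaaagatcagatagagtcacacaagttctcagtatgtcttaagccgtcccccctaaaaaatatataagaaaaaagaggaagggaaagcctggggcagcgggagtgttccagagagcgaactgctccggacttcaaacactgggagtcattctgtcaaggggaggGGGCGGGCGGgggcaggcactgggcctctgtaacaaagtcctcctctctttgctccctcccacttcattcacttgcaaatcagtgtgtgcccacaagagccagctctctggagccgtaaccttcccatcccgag
Pcdh10: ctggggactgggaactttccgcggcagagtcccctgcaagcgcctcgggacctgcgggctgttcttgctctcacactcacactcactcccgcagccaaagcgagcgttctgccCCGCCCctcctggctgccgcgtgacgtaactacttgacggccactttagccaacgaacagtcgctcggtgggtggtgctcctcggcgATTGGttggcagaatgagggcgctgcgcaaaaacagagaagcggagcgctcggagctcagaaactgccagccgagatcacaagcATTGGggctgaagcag
Cdh22: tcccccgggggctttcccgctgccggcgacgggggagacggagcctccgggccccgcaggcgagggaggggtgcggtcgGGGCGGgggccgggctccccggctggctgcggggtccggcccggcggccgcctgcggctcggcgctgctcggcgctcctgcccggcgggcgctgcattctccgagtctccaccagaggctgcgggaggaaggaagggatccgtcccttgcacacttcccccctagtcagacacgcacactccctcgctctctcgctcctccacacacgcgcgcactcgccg

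The Pcdh8 window held 1 TATA box match and 1 CCAAT box match. In the Cdh6 window 2 GC box matches overlapped each other and made 1 run of capitals. Pcdh10 had 2 CCAAT box matches and 1 GC box match, and Cdh22 had 1 GC box match in a window of 76.3% G and C with 38 CpG sites. TGACCA was in none of the 4 windows. Over all member windows TATAAA was present in 2 of 31 (6.45%, against 13.6% of all 32851 RefSeq windows), CCAAT in 17 (54.8%, against 37.4%), GGGCGG in 10 (32.3%, against 35.7%) and TGACCA in 2 (6.45%, against 13.6%). The median member window was 60.3% G and C with 14 CpG sites, against 52.7% and 7 over all windows. These are matches of letters and were not tested against the RNA levels.

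Total counts were 18962308 to 36059112 per library in WT somata, 35243688 to 51205154 in somata labelled KO, 26382991 to 29323028 for the growth cones of WT, and 21657575 to 27723067 for those labelled KO. Levels below are counts per 1000000 counts (CPM), with TMM factors over all 20 libraries, and errors are SD over n = 5 libraries. Bcl11b, the targeted gene, was not lower in the libraries labelled KO. Its level was 537 to 805 CPM in WT somata against 1079 to 1231 CPM in those labelled KO, and in growth cones 72.3 to 122 CPM (WT) against 69.7 to 140.4 CPM, so the word labelled is kept throughout and every genotype direction rests on the labels. The 9 listed markers of subcerebral projection neurons, Bcl11b among them, summed to 2277 to 2927 CPM in somata and 707 to 1118 CPM in growth cones.

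The mean share of counts in the set was 0.243% ± 0.0327 for WT somata, 0.216% ± 0.00630 for the somata labelled KO, 0.116% ± 0.0155 in WT growth cones and 0.112% ± 0.00866 in growth cones labelled KO. Of the 43 members 20 had over 3 counts in every library, 20 did so in some libraries, and 3 were at 0 in all 20. The 3 were Cdh16, known from kidney, Cdh19, known from the Schwann cell lineage, and Cdh26, known from epithelia. A count of 3 corresponds to 0.0631 to 0.172 CPM, depending on the library, and covers counting error only. Growth cones and somata had similar numbers of detected members, 27 to 38 per growth cone library and 29 to 34 per soma library.

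**Figure D1:**
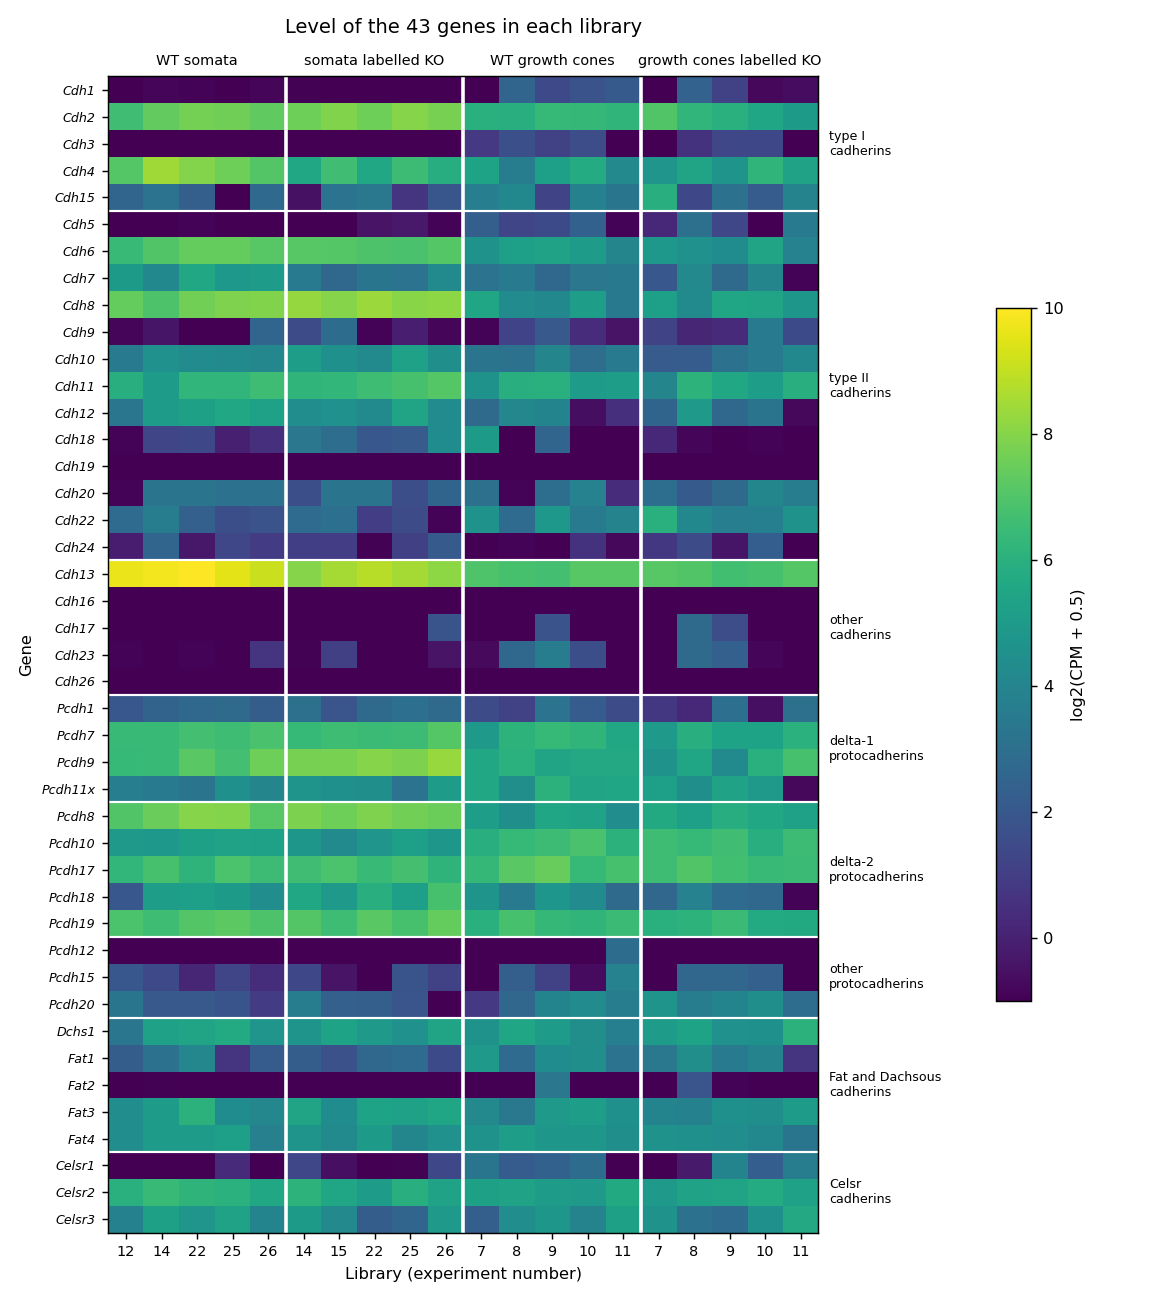
Level of each of the 43 members (rows, by subfamily) in each of the 20 libraries (columns, by group and experiment number), as log2(CPM + 0.5) on a colour scale. Cdh13 is brightest in the 5 WT somata (559 to 1027 CPM), and the 3 members at 0 in all 20 libraries stay at the dark end.

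A few members held most of the signal in somata. Per kilobase of exon (RPKM), which allows genes to be compared, the highest level in WT somata was that of Cdh13 (72.2 ± 15.3), followed by Pcdh8 (41.8 ± 12.8), Cdh4 (29.2 ± 12.3), Cdh8 (25.1 ± 6.47) and Cdh2 (20.4 ± 5.37). The gap between Cdh13 and Pcdh8 was larger than either SD, while those between Pcdh8 and Cdh4, Cdh4 and Cdh8, and Cdh8 and Cdh2 did not exceed the larger SD of the pair. In somata labelled KO the order was Pcdh8 (45.5 ± 5.16), Cdh8 (36.9 ± 3.55), Pcdh9 (36.3 ± 5.87) and Cdh13 (30.6 ± 6.76). In growth cones levels lay closer together, with Cdh13 at 11.1 ± 1.42, Pcdh17 at 9.11 ± 3.16 and Cdh2 at 8.86 ± 1.22 RPKM in WT, and Cdh13 at 11.1 ± 1.52, Pcdh8 at 10.3 ± 1.86 and Cdh2 at 8.46 ± 4.58 RPKM in growth cones labelled KO.

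Genotype in somata. Of the 31 members tested, 2 differed between somata labelled KO and WT somata at an adjusted p under 0.05 (edgeR quasi-likelihood test, Benjamini-Hochberg over all genes), and both, Cdh13 and Cdh4, were lower. Over all 14911 genes tested, 0.731% were called and 0.315% were called lower. No delta protocadherin, type II cadherin, Fat, Dachsous or Celsr member was called. The median log2 fold change of the members tested was -0.07, against 0.00 over all genes.

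Cdh13 encodes T-cadherin, which is held in the membrane by a lipid anchor and has no cytoplasmic domain. The gene (ENSMUSG00000031841.19) lies on the plus strand of chromosome 8 at 118283733 to 119324921 (GRCm38). Its level was 820.2, 888, 1027, 762 and 559 CPM in WT somata 12, 14, 22, 25 and 26. In somata 14, 15, 22, 25 and 26 labelled KO it was 258, 364, 448, 367 and 280.4 CPM. Every library labelled KO was below every WT library. Group means were 811 ± 172 and 343 ± 76.0 CPM, and Cdh13 fell by 1.24 ± 0.18 (SE) in log2 units (edgeR adjusted p = 0.00652).

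Cdh4 encodes R-cadherin, a type I cadherin first described in retina. The gene (ENSMUSG00000000305.12) lies on the plus strand of chromosome 2 at 179442431 to 179899373 (GRCm38). It was at 137, 348, 247, 193 and 135 CPM in WT somata 12, 14, 22, 25 and 26, and at 47.1, 97.7, 47.5, 93.6 and 58.1 CPM in somata 14, 15, 22, 25 and 26 labelled KO. The groups did not overlap, and WT soma 14 was the highest library. Means were 212 ± 88.9 and 68.8 ± 24.9 CPM, and Cdh4 fell by 1.63 ± 0.30 (SE) in log2 units (edgeR adjusted p = 0.0327). The call was lost without WT soma 14 (adjusted p = 0.0608), 22 (0.0928) or 25 (0.0669), and without soma 14 (0.0861), 22 (0.104) or 26 (0.0891) labelled KO. A fit of all 20 libraries lost it too (adjusted p = 0.183).

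The other type I cadherins did not pass the test. Cdh2, the N-cadherin of neural tissue, was at 165 ± 43.3 CPM in WT somata, with 219 ± 30.0 CPM in the labelled KO group (log2 fold change 0.41 ± 0.18, edgeR adjusted p = 0.533). Cdh15, known from muscle and cerebellum, spread from 0 to 9.96 CPM over the 10 soma libraries. Cdh3, which encodes P-cadherin, was at 0 in all 10, and Cdh1, which encodes E-cadherin, did not exceed 3 counts in any of them.

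Among the type II cadherins Cdh7 and Cdh8 pointed in opposite directions. Cdh7 was at 31.7, 17.3, 46.9, 28.8 and 32.4 CPM in WT somata 12, 14, 22, 25 and 26, and at 10.7, 5.82, 9.29, 8.61 and 18.2 CPM in somata 14, 15, 22, 25 and 26 labelled KO. The groups overlapped through WT soma 14 and soma 26 labelled KO. The log2 fold change was -1.58 ± 0.33 and missed the threshold (edgeR adjusted p = 0.0597), which it passed without WT soma 14 (adjusted p = 0.0412) or without soma 26 labelled KO (0.0221).

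Cdh8, a type II cadherin of projection neurons with restricted cortical expression, was at 171, 121, 200.2, 234 and 245 CPM in WT somata 12, 14, 22, 25 and 26. In somata 14, 15, 22, 25 and 26 labelled KO it was at 306, 259, 323, 264 and 278 CPM. All 5 libraries labelled KO were above all 5 WT libraries, although the difference, 0.56 ± 0.17 on the log2 scale, did not pass (edgeR adjusted p = 0.244). Cdh18 likewise did not overlap at a low level, with 0.0314 to 2.08 CPM in WT somata against 3.43 to 19.6 CPM in the KO-labelled ones (log2 fold change 2.99 ± 0.87, edgeR adjusted p = 0.218). Cdh6, Cdh10, Cdh11 and Cdh12 had log2 fold changes of -0.09 ± 0.16, 0.62 ± 0.27, 0.55 ± 0.26 and -0.44 ± 0.37, none past the threshold.

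Of the delta-1 protocadherins Pcdh9 came nearest to the threshold. It was at 81.5, 84.8, 144, 103 and 188 CPM in WT somata 12, 14, 22, 25 and 26, while the values were 217, 219, 255, 227 and 312 CPM for somata 14, 15, 22, 25 and 26 labelled KO. The groups did not overlap, with means of 120.3 ± 45.3 and 246 ± 39.8 CPM. The log2 fold change of 1.03 ± 0.22 did not pass (edgeR adjusted p = 0.0666), and it passed without WT soma 26 (adjusted p = 0.0167). Members with no overlap were therefore 5 of the 32 with enough counts in this comparison, Cdh4 and Cdh13 lower and Cdh8, Cdh18 and Pcdh9 higher, against 3.01% of all 16368 genes. DESeq2, which called 2.7% of genes here, called those 5 and Cdh7.

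**Figure D2:**
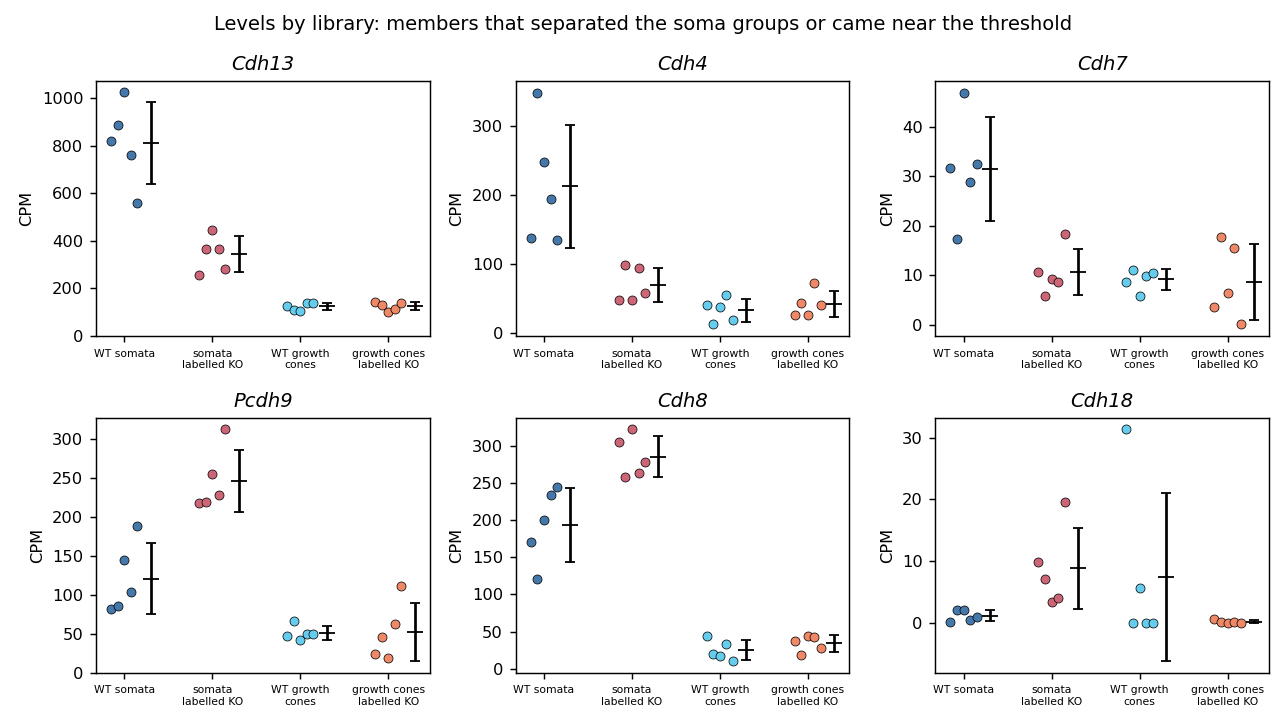
CPM per library (points) with mean and SD (bars, n = 5) for Cdh13, Cdh4, Cdh7, Pcdh9, Cdh8 and Cdh18 in the 4 groups. Cdh13 separates the soma groups (559 to 1027 against 258 to 448 CPM), while its growth cone groups share one range (103 to 142 CPM).

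None of the remaining protocadherins and large cadherins passed the test in somata. Pcdh8 (0.12 ± 0.19), Pcdh17 (0.03 ± 0.17), Pcdh19 (0.08 ± 0.16) and Pcdh7 (0.03 ± 0.15) had log2 fold changes smaller than their SE, and Pcdh10 was at -0.36 ± 0.19. Fat3 (0.23 ± 0.37), Fat4 (-0.24 ± 0.29), Dchs1 (-0.07 ± 0.37), Celsr2 (-0.43 ± 0.22), Celsr3 (-0.58 ± 0.55), Fat1 (-0.65 ± 0.63) and Pcdh11x (0.65 ± 0.35) had values further from 0 or with a larger SE. Pcdh18 was at 3.51, 35.9, 36.3, 31.2 and 20.3 CPM in WT somata 12, 14, 22, 25 and 26, and at 47.7, 29.4, 59.6, 36.0 and 110.3 CPM in somata 14, 15, 22, 25 and 26 labelled KO. WT soma 12 was far below the other WT libraries and soma 26 labelled KO far above its group (log2 fold change 1.15 ± 0.52, edgeR adjusted p = 0.577).

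Some markers of another cortical projection class differed with the soma genotype labels. The 5 corticothalamic markers summed to 116 to 235 CPM in the WT group and 319 to 449 CPM in the labelled KO group of somata. Of the 5, 2 were called higher, against 62 of all 14911 genes, and none was at 0 in all libraries of a group. Their median log2 fold change was 0.67. Tle4, which is part of this sum, had means of 50.2 ± 16.7 and 175 ± 42.1 CPM, so the sum rests largely on it. The subcerebral markers summed to 2277 to 2588 and 2639 to 2927 CPM, with 3 of 9 called higher, Bcl11b among them, and 2 called lower. The median log2 fold change of the 9 was -0.16, so the higher sum does not stand for most of them. Bcl11b, which is part of this sum, had a mean of 700 ± 130 under the WT label and 1151 ± 56.6 CPM under the KO label. The part of these differences in the values of Cdh13, Cdh4, Cdh8 and Pcdh9 was not tested. In bulk RNA, fewer cells of a type and less RNA per cell cannot be told apart.

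Genotype in growth cones. None of the 35 members tested was called by genotype, and neither was any other gene (edgeR, 0% of 15419 genes). At an unadjusted p under 0.05 edgeR gave 0 members and 2.13% of genes, and DESeq2 called 0 members and 0.0713% of genes. No member separated the groups, against 0.521% of 16500 genes.

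The 3 members with the lowest p were all delta-2 protocadherins. Pcdh8, whose product is taken into the cell together with N-cadherin after neuronal activity, was at 34.5, 21.9, 43.7, 40.2 and 20.5 CPM in WT growth cones 7 to 11, with 51.7, 37.0, 57.0, 48.2 and 39.1 CPM in growth cones 7 to 11 labelled KO. Pcdh19, mutated in an epilepsy that mainly affects girls, was at 63.5, 111, 81.1, 74.1 and 90.3 CPM against 62.8, 69.1, 91.1, 53.1 and 50.9 CPM. Pcdh18 was at 25.5, 11.1, 26.8, 19.1 and 6.51 CPM against 5.63, 14.2, 6.64, 5.92 and 0.0449 CPM. All 3 pairs of groups overlapped, and the log2 fold changes were 0.54 ± 0.31, -0.34 ± 0.22 and -1.44 ± 0.95 (edgeR adjusted p = 0.999 for each).

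Cdh13 was at 126, 111, 106, 140.3 and 139 CPM in WT growth cones 7 to 11, with 142, 128, 103, 112 and 139 CPM in those labelled KO. These libraries were within one narrow range, with means of 125 ± 15.9 and 125 ± 17.1 CPM (log2 fold change 0.01 ± 0.17). Cdh4 was at 40.8, 12.1, 36.7, 54.0 and 17.9 CPM in WT and at 26.1, 42.4, 25.3, 72.1 and 39.9 CPM in growth cones labelled KO (0.37 ± 0.47). The groups overlapped widely.

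**Figure D3:**
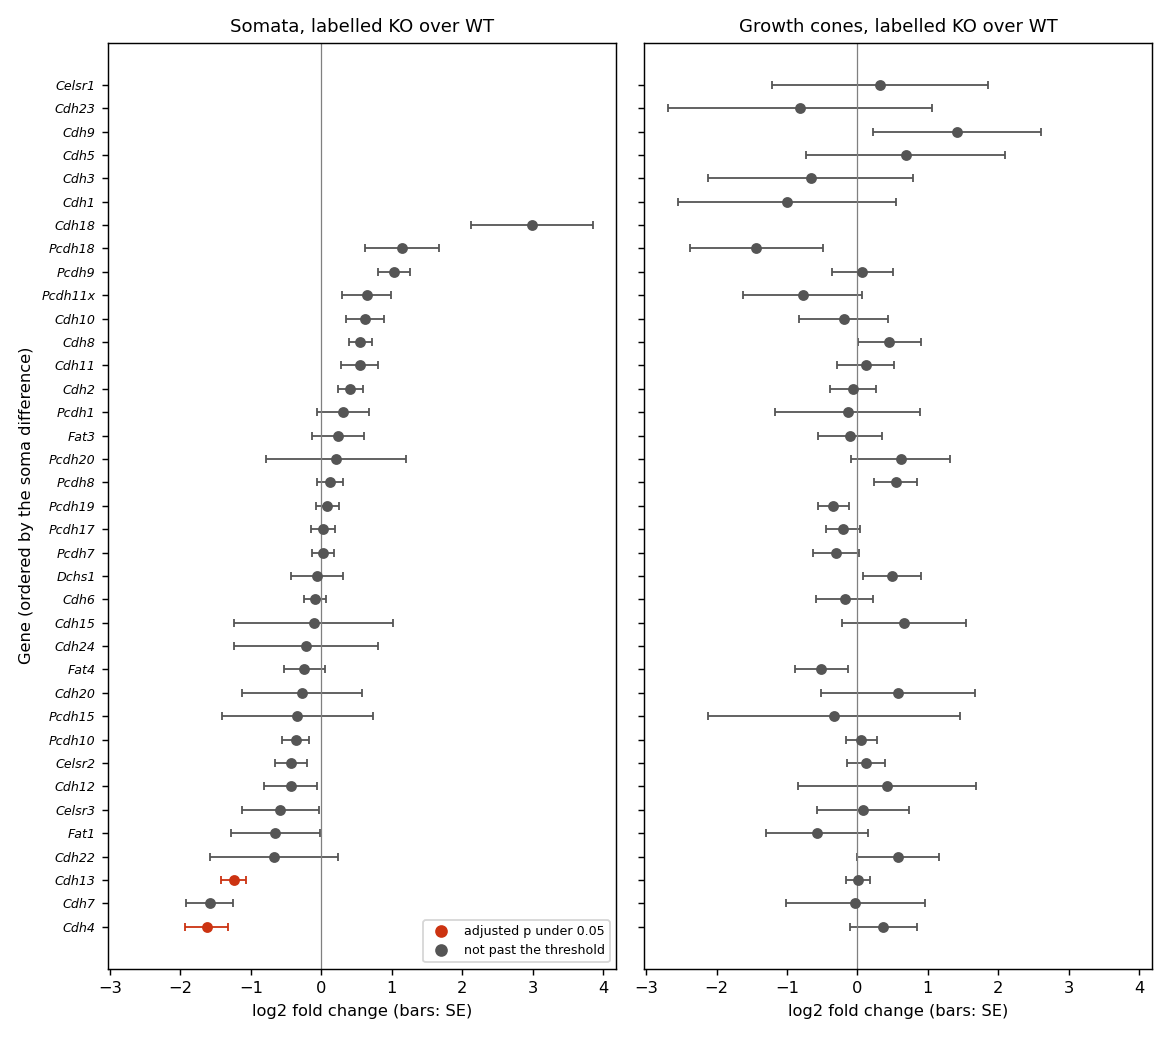
Log2 fold change with SE (bars) of each member tested between libraries labelled KO and WT, in somata (left) and growth cones (right), ordered by the soma value. Cdh13 (-1.24) and Cdh4 (-1.63) are marked as past the threshold in somata, and no member is in growth cones, where most error bars are longer.

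The difference between these genotype effects was tested with an interaction term in a fit of all 20 libraries. None of 37 members tested was called, against 0.0397% of 17645 genes, and at an unadjusted p under 0.05 edgeR gave 4 members and 6.98% of genes. Cdh13 had the lowest p, with an interaction of 1.24 ± 0.24 on the log2 scale, which means a less negative difference in growth cones (edgeR adjusted p = 0.0607). It passed without WT soma 26 (adjusted p = 0.0262). Cdh4 (1.97 ± 0.56, adjusted p = 0.333) and Cdh18 (-8.56 ± 2.68, adjusted p = 0.413) followed. DESeq2 called these 3 members and 1.55% of genes. In WT growth cones Cdh18 was at 31.4 CPM in library 7, 5.60 CPM in library 9 and 0 in the other 3, and in growth cones labelled KO it did not exceed 0.663 CPM.

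Compartment. Growth cones had experiment numbers 7 to 11 and somata numbers from 12 to 26, with none shared. RNA input started at 0.19 ng for growth cones and at 1.8 ng for somata. In all compartment results below, compartment therefore cannot be told apart from experiment or RNA input. Between growth cones and somata 13 of 32 members tested were called in WT, 10 lower and 3 higher in growth cones. Over all 15128 genes 42.8% were called, 19.7% lower and 23.1% higher, so the total share of members called (40.6%) was near that of all genes. Between the libraries labelled KO 15 of 34 members were called, 12 lower and 3 higher, against 38.6% of 15410 genes, 17% lower and 21.6% higher. The median log2 fold change of the members tested was -0.44 in WT and -0.21 in libraries labelled KO, against 0.07 and 0.11 over all genes. Upper-quartile scaling moved the medians of all genes to 0.28 and 0.31 and those of the members to -0.21 and 0.00, and in WT it gave 8 members lower and 4 higher. The number called higher changed with the library left out and with the number of members that passed the filter. In WT it was 6 without WT soma 14 or 25, 5 without WT soma 12, 22 or 26 or WT growth cone 11, 5 with no filter on low counts, and 2 without WT growth cone 9. The members tested in these fits were 37 without WT soma 12, 14, 22 or 25 and 35 without WT soma 26. They were 36 without WT growth cone 11, 40 with no filter and 32 without WT growth cone 9. Between the libraries labelled KO the number called higher was 1 without soma 22, soma 25 or growth cone 8, with 34 members tested in each. It was 5 in a fit of all 20 libraries, with 37 tested. Pcdh10 was called higher in each of these fits. The library groups did not overlap for 10 of 33 members in WT and 14 of 34 in libraries labelled KO, against 36.7% and 35.4% of genes.

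Both comparisons use different libraries, and 32 members were tested in both. The sign of the log2 fold change was the same for 26 of them. Called lower in growth cones in both were 7 members (Cdh2, Cdh6, Cdh8, Cdh13, Pcdh8, Pcdh9 and Pcdh19), and called higher in both were 2 (Pcdh10 and Cdh22). Of these 9, all but Pcdh19 and Cdh22 had no overlap between compartments in either genotype.

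**Figure D4:**
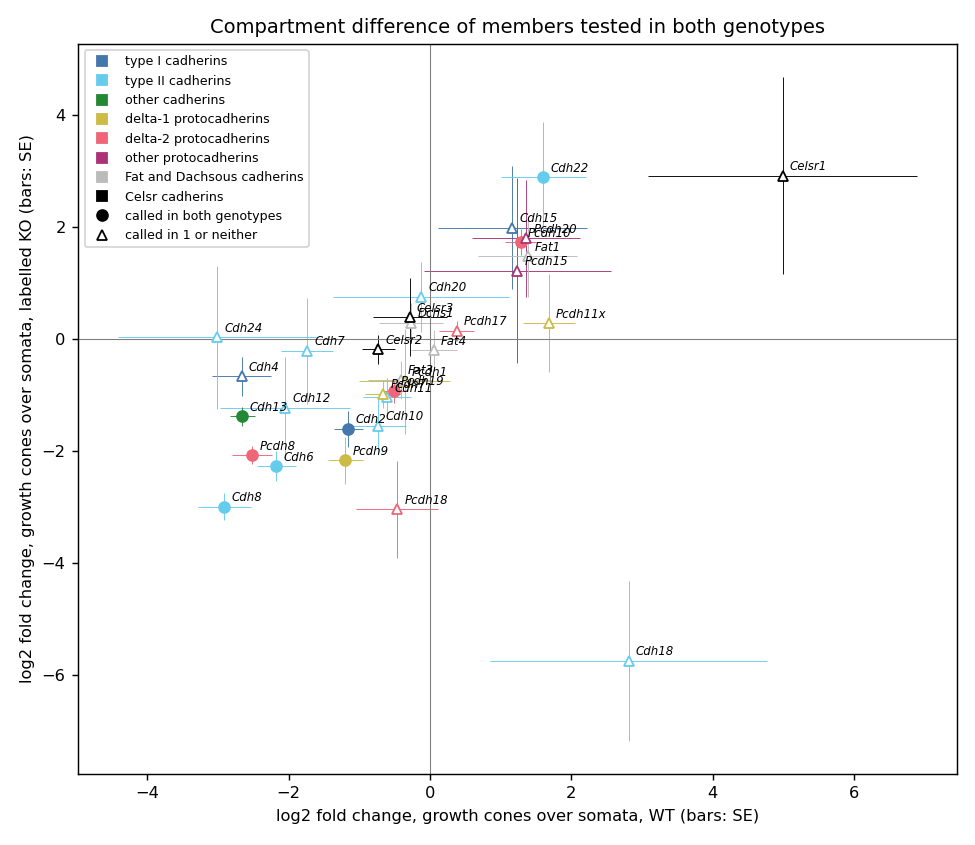
Log2 fold change of growth cones over somata in WT (horizontal) against that in libraries labelled KO (vertical) for the 32 members tested in both, coloured by subfamily, with SE as bars. Filled circles, called in both genotypes, lie at the lower left for 7 members and at the upper right for 2. Cdh4, called in WT alone, is an open triangle at -2.67 and -0.67.

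Cdh13, the member with the highest RPKM in WT, was also the one with the lowest p between compartments in WT. From the soma and growth cone values given above it was 811 ± 172 against 125 ± 15.9 CPM in WT, a log2 fold change of -2.66 ± 0.18 (edgeR adjusted p = 6.13e-07). Between libraries labelled KO it was 343 ± 76.0 against 125 ± 17.1 CPM, at -1.38 ± 0.17 (adjusted p = 8.43e-05). The growth cone ranges of both genotypes overlapped, and the soma ranges did not.

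The type II cadherins Cdh8 and Cdh6 were lower in growth cones in both genotypes. Cdh8 was at 43.8, 19.4, 17.2, 33.9 and 10.4 CPM in WT growth cones 7 to 11, with 36.9, 17.96, 44.2, 42.9 and 27.9 CPM in growth cones labelled KO. Each growth cone library was below each soma library, and the log2 fold changes were -2.91 ± 0.38 in WT (edgeR adjusted p = 7.76e-05), and -2.99 ± 0.24 for the labelled KO pair (3.45e-06).

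Cdh6, a type II cadherin that marks subsets of neurons and axon tracts, was at 87.1, 129, 168, 168 and 141 CPM in WT somata 12, 14, 22, 25 and 26 and at 24.02, 36.1, 40.3, 32.6 and 15.8 CPM in WT growth cones 7 to 11. The libraries labelled KO held 143, 137, 121, 115 and 137 CPM in somata 14, 15, 22, 25 and 26 and 28.8, 23.4, 19.9, 42.4 and 14.2 CPM in growth cones 7 to 11. The highest growth cone library was below the lowest soma library. Log2 fold changes were -2.17 ± 0.28 (edgeR adjusted p = 6.81e-05) and -2.27 ± 0.27 (6.05e-05).

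Cdh2 was lower in growth cones by a smaller amount. It was at 97.5, 162, 209.6, 195 and 158 CPM in WT somata and at 63.7, 59.6, 81.7, 80.3 and 72.2 CPM in WT growth cones. In somata labelled KO it was at 193, 244, 191, 257 and 213 CPM, and at 127, 74.5, 62.8, 45.4 and 31.1 CPM in growth cones labelled KO. The compartments did not overlap, although growth cone 7 labelled KO was well above the others of its group, and the log2 fold changes were -1.15 ± 0.20 (edgeR adjusted p = 0.000733) and -1.60 ± 0.32 (0.00209).

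Cdh22, a type II cadherin of brain, was the member of its subfamily called higher in growth cones in both genotypes. It was at 6.62, 12.3, 4.62, 2.66 and 2.98 CPM in WT somata and at 24.8, 6.69, 28.9, 10.7 and 14.6 CPM in WT growth cones, where libraries 8 and 10 lay within the soma range. The libraries labelled KO held 6.79, 7.71, 1.49, 2.41 and 0.0311 CPM in somata and 63.0, 17.1, 12.4, 12.9 and 23.6 CPM in growth cones, without overlap. Log2 fold changes were 1.60 ± 0.60 (edgeR adjusted p = 0.0485) and 2.89 ± 1.00 (0.0384).

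Both Cdh22 calls were lost when single libraries were left out. In WT the adjusted p was 0.0580 without WT growth cone 11, 0.0949 without 7 and 0.122 without 9, and 0.0622, 0.104, 0.0888 and 0.102 without WT soma 12, 22, 25 and 26. In libraries labelled KO it was 0.0547, 0.109 and 0.0513 without growth cone 11, 7 and 8, and 0.0868 and 0.0843 without soma 22 and 25. Without growth cone 7 labelled KO the log2 fold change was 2.19. With no filter on low counts the adjusted p was 0.0776 in WT and 0.0642 for the libraries labelled KO, and in a fit of all 20 libraries it was 0.137 in WT.

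The delta-2 protocadherins did not share a direction. Pcdh8 was at 129, 179.9, 253, 246 and 139 CPM in WT somata 12, 14, 22, 25 and 26, with 225, 189, 237, 199 and 183 CPM in somata 14, 15, 22, 25 and 26 labelled KO. All soma libraries were above all growth cone libraries listed above, with log2 fold changes of -2.51 ± 0.29 in WT (edgeR adjusted p = 2.94e-05), and -2.07 ± 0.16 for the labelled KO pair (3.45e-06). On 9.61% of its exon bases Pcdh8 overlaps the opposite-strand gene Gm9748, and the use of strand in counting is not given in the sources used here.

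Pcdh10, a protocadherin needed for the outgrowth of striatal and thalamocortical axons, went the other way. It was at 30.1, 28.8, 37.6, 39.8 and 39.0 CPM in WT somata and at 60.5, 81.5, 91.7, 113 and 67.5 CPM in WT growth cones. In libraries labelled KO it was at 27.8, 18.7, 25.9, 36.6 and 27.6 CPM in somata and at 96.2, 81.1, 97.1, 60.4 and 94.2 CPM in growth cones. Every growth cone library was above every soma library, and the log2 fold changes were 1.28 ± 0.22 (edgeR adjusted p = 0.000566) and 1.73 ± 0.23 (0.000143).

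Pcdh17, a member of the same subfamily that also binds WAVE proteins, was among the members with the highest RPKM in WT growth cones and did not pass the test between compartments. It was at 78.5, 109.7, 71.5, 118 and 92.2 CPM in WT somata and at 78.9, 147, 173, 81.7 and 111 CPM in WT growth cones. The libraries labelled KO held 98.8, 116, 86.8, 108 and 70.6 CPM in somata and 96.3, 128, 102, 86.9 and 90.7 CPM in growth cones. The ranges overlapped in both genotypes (log2 fold changes 0.38 ± 0.24 and 0.15 ± 0.18, edgeR adjusted p = 0.233 and 0.541).

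Pcdh19 was at 118, 95.9, 133, 150.0 and 121 CPM in WT somata, with 132, 96.9, 146, 112 and 169 CPM in somata labelled KO. Against the growth cone values above its log2 fold changes were -0.51 ± 0.19 in WT (edgeR adjusted p = 0.0420), and -0.92 ± 0.21 for the labelled KO pair (0.00503). In WT the compartments overlapped through growth cone 8. The WT call was lost without WT growth cone 7 (adjusted p = 0.105), 9 (0.0731) or 10 (0.0809) and without WT soma 12 (0.114), 22 (0.0780), 25 (0.194) or 26 (0.0551), and also with upper-quartile scaling (0.195), size factor scaling (0.0843), no filter on low counts (0.0550) and DESeq2 (0.0660).

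**Figure D5:**
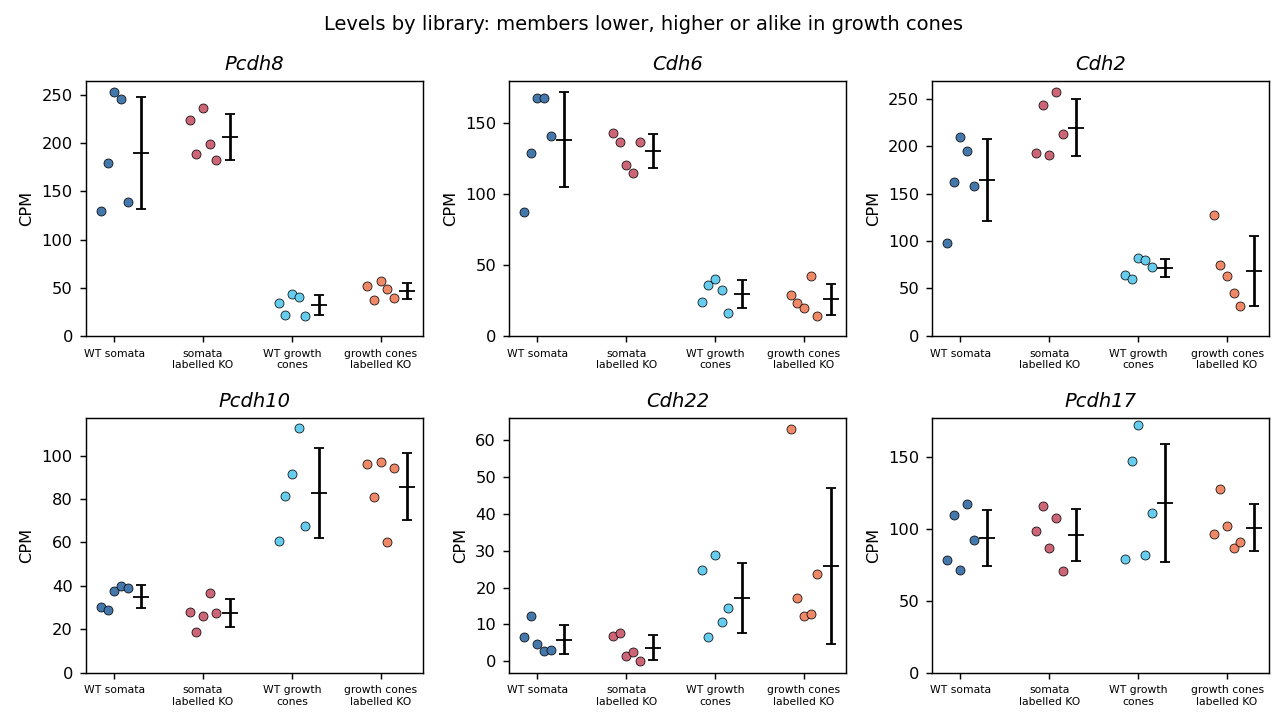
CPM per library (points) with mean and SD (bars, n = 5) for Pcdh8, Cdh6, Cdh2, Pcdh10, Cdh22 and Pcdh17 in the 4 groups. Pcdh8, Cdh6 and Cdh2 sit lower in growth cones and Pcdh10 higher (60.4 to 113 against 18.7 to 39.8 CPM), while the Pcdh17 ranges overlap.

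Pcdh9 was at 46.6, 65.7, 42.3, 49.8 and 49.4 CPM in WT growth cones 7 to 11, with 23.9, 45.8, 18.6, 62.0 and 111 CPM in growth cones labelled KO. Growth cone 11 labelled KO was the highest of these, and all were below the somata of their genotype. The log2 fold changes were -1.20 ± 0.25 in WT (edgeR adjusted p = 0.00228), and -2.16 ± 0.42 for the labelled KO pair (0.00173). The interaction for Pcdh9 was -0.99 ± 0.50 (adjusted p = 0.749).

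Calls in 1 genotype only involved 10 members. By edgeR the interaction called none of them, and by DESeq2 it called Cdh4 and Cdh18 of these. In WT these were Cdh4 (-2.67 ± 0.42 in WT, -0.67 ± 0.34 in libraries labelled KO), Cdh7 (-1.74 ± 0.37 and -0.21 ± 0.95), Celsr2 (-0.73 ± 0.23 and -0.18 ± 0.26) and Pcdh11x (1.68 ± 0.37 and 0.28 ± 0.87). Cdh4 was also called between libraries labelled KO without growth cone 10 (adjusted p = 0.0330). In a fit of all 20 libraries the WT calls of Cdh7 (0.0575) and Pcdh11x (0.0727) were lost. Cdh24, a type II cadherin not called in either genotype (-3.01 ± 1.40 in WT), passed in WT without growth cone 10 (0.00915), and Cdh12 (-2.05 ± 0.92 in WT) passed there by DESeq2 (0.0401). Celsr2, a partner of Frizzled receptors, lost its WT call without WT growth cone 10 (adjusted p = 0.0541), without WT soma 12 (0.0577), 14 (0.0745) or 25 (0.0683), and with upper-quartile scaling (0.0906).

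The 6 members called between the libraries labelled KO alone were Cdh5, Cdh10, Cdh11, Cdh18, Pcdh7 and Pcdh18. Of these, Cdh5 did not pass the low-count filter in WT and was not tested there. Its WT levels are given below. Pcdh7 had log2 fold changes of -0.66 ± 0.25 in WT and -0.98 ± 0.24 in libraries labelled KO, and passed in WT too without WT growth cone 9 (adjusted p = 0.0339) or in a fit of all 20 libraries (0.0326). On 21.1% of its exon bases it overlaps the opposite-strand gene 4932441J04Rik. Pcdh18 had values of -0.47 ± 0.58 and -3.04 ± 0.86, and Cdh18 of 2.81 ± 1.96 and -5.74 ± 1.43. Without growth cone 7 of the same genotype the Cdh18 values were 0.42 in WT and -8.15 in libraries labelled KO.

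Cdh10 had log2 fold changes of -0.73 ± 0.40 in WT and -1.54 ± 0.49 in libraries labelled KO. The second call was lost without soma 14 (adjusted p = 0.0625) or 25 (0.0683) labelled KO. Cdh11, a type II cadherin common in mesenchyme as well as in brain, had values of -0.61 ± 0.34 and -1.04 ± 0.35. The second call was lost without growth cone 9 (0.0570) or 10 (0.0726) and without soma 22 (0.0569), 25 (0.0667) or 26 (0.0795) labelled KO, and with upper-quartile scaling (0.0772).

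The Fat, Dachsous and Celsr members are large planar polarity cadherins, and except for Celsr2 none was called between compartments. Celsr3, needed for corticospinal and other long axon tracts, was at 26.5 ± 12.3 CPM in WT somata, 17.8 ± 13.0 in somata labelled KO, 21.1 ± 12.6 in WT growth cones and 22.1 ± 17.0 in growth cones labelled KO. Dchs1 was at 33.8 ± 16.6, 32.4 ± 8.75, 27.1 ± 11.7 and 37.5 ± 18.6 CPM in the same order, and its partner Fat4 at 27.1 ± 9.78, 23.1 ± 6.04, 27.4 ± 5.10 and 18.9 ± 6.08 CPM. For each of these 3 genes the 4 groups overlapped.

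Fat1 and Fat3 had opposite signs between compartments. Fat1 was at 6.91 ± 5.996 CPM in WT somata and 17.4 ± 9.71 in WT growth cones (log2 fold change 1.38 ± 0.70, edgeR adjusted p = 0.132), and its value in libraries labelled KO, 1.48 ± 0.72 (0.127), passed without growth cone 11 labelled KO (0.0238). Fat3 had values of -0.41 ± 0.46 in WT and -0.73 ± 0.34 in libraries labelled KO, and the latter also passed without that library (0.0342). Celsr1, the progenitor and epithelial member, was at 0 in 4 of 5 WT somata and at 0 to 9.25 CPM in WT growth cones. Its log2 fold change in WT was 4.99 ± 1.91 (adjusted p = 0.0521) and passed without WT soma 25 (0.00902) or WT growth cone 11 (0.0277), with size factor (0.0489) or upper-quartile scaling (0.0447), and by DESeq2 (0.0178).

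Several members known mainly from other cell types were at or under 3 counts in somata and present at low levels in some growth cone libraries. A member that low in somata could hardly be found lower in growth cones, so the direction of the bounds below follows from that. Cdh1 was at 2.90 ± 2.03 CPM in WT growth cones, with 4 of 5 libraries over 3 counts, at least 26.7-fold higher than WT somata taken at 3 counts per library. Cdh3 was at 1.67 ± 1.10 CPM there, with 4 of 5 libraries over the floor and at least 15.4-fold higher. In growth cones labelled KO the means were 1.40 ± 2.17 CPM for Cdh1 (2 of 5 libraries over the floor, at least 18.4-fold higher) and 1.02 ± 1.02 CPM for Cdh3 (3 of 5, at least 13.4-fold higher). Without growth cone 8 labelled KO the Cdh1 mean was 0.490 CPM and the bound at least 6.42-fold.

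Cdh5, the VE-cadherin of blood vessel walls, was at 4.59, 1.93, 2.27, 4.81 and 0.0319 CPM in WT growth cones, with 0.663, 7.77, 2.01, 0 and 11.5 CPM in growth cones labelled KO. Somata held 0 to 0.347 CPM, and in WT the level was at least 25.1-fold higher in growth cones. In libraries labelled KO the fitted log2 fold change was 5.16 ± 1.80 (edgeR adjusted p = 0.0400), and Cdh5 is among the 3 members called higher there. It did not pass the low-count filter between soma genotypes, so it entered through growth cones and could hardly be called lower. That call was lost without growth cone 8 (adjusted p = 0.0729), 9 (0.0560) or 11 (0.0818) and without soma 14 (0.0769), 15 (0.0786), 22 (0.0709), 25 (0.0534) or 26 (0.0962) labelled KO, and with no filter on low counts (0.0773). Fat2, Pcdh12 and Cdh17 exceeded 3 counts in at most 2 libraries of any group.

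Markers of several other cell types were higher in growth cones, and those of endothelium leaned the same way, with overlapping sums and no call. The 6 endothelial markers summed to 1.30 to 71.0 CPM in somata and 21.99 to 90.4 CPM in growth cones. None of them was called in either genotype. The median log2 fold change of those tested was 0.69 in WT and 1.01 in libraries labelled KO, against 0.07 and 0.11 over all genes. In WT Cldn5 was at 0 to 11.1 CPM in somata and 12.3 to 44.5 CPM in growth cones. Under the KO label it was at 0 to 31.2 and 31.8 to 42.0 CPM, while Pecam1 overlapped in both genotypes. Meningeal and pericyte markers summed to 1.94 to 29.6 CPM in somata and 99.6 to 263 CPM in growth cones, with 4 of 6 called higher in each genotype. Choroid plexus markers summed to 0.115 to 2.01 and 198 to 416 CPM, and 1 of 5 could be tested and was called higher, while Kcnj13 and Kl were at 0 in all WT somata. Ttr made up most of this sum, at 194 to 389 CPM in growth cones. None of the 5 passed the low-count filter between soma genotypes, so the gene tested entered through growth cones.

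Several glial and other neuronal markers were also higher in growth cones. Markers of astrocytes and radial glia summed to 30.0 to 329 CPM in somata and 1504 to 2261 CPM in growth cones (5 of 6 called higher in WT, 4 of 6 in libraries labelled KO), and those of oligodendrocytes to 59.5 to 109 and 457 to 2084 CPM (5 of 7 higher in each). Interneuron markers summed to 11.4 to 58.5 and 365 to 515 CPM (6 of 6 higher in each). Markers of hindbrain and spinal cord neurons summed to 0.0725 to 13.0 and 53.9 to 219.8 CPM (7 of 10 higher in WT, 6 of 10 in libraries labelled KO), with Chat and Hoxc6 at 0 in all somata. Chat was at 0 in all WT growth cones as well. Of the 10 genes 1 passed the low-count filter between soma genotypes and 9 between growth cone genotypes. Most of those tested between compartments thus entered through growth cones and could hardly be called lower there.

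The 6 general neuronal markers summed to 9540.1 to 12658 CPM in somata and 6050.3 to 7623 CPM in growth cones, with 2 called lower in each genotype. The 6 callosal markers summed to 281 to 454 CPM in somata and 669 to 956 CPM in growth cones, with 4 called higher and 1 lower in each genotype. The 6 microglial markers overlapped widely, at 3.42 to 92.5 CPM in somata and 9.65 to 118 CPM in growth cones with 1 called higher in each, and Schwann cell markers were at 14.9 CPM or less in every library, none called. The part of these cells in the higher growth cone values of Pcdh10, Cdh22, Pcdh11x, Cdh1, Cdh3 and Cdh5, and in the lower ones of the other members, was not tested.

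The intracellular partners of these proteins are given for the same comparisons. No partner gene passed between genotypes in growth cones, and 1 did in somata. This was Fjx1, which encodes a kinase of the Golgi that phosphorylates Fat and Dachsous cadherins, at 116 to 221 CPM in WT somata against 312 to 395 CPM in those labelled KO. The groups did not overlap, and the log2 fold change was 1.06 ± 0.17 (edgeR adjusted p = 0.0125).

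Between compartments partners moved in both directions. Of 8 catenin and afadin genes tested in WT, 3 were lower in growth cones (Ctnna2, Ctnnd2 and Jup) and 2 higher (Ctnna1 and Afdn). In libraries labelled KO the same 3 of 7 were lower and none was higher. Ctnna2, the neuronal alpha-catenin, was at 322 ± 66.4 CPM in WT somata and 115 ± 41.1 CPM in WT growth cones (log2 fold change -1.43 ± 0.27, edgeR adjusted p = 0.00120).

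Of the 9 WAVE complex genes, 5 were lower (Wasf1, Cyfip1, Cyfip2, Nckap1 and Abi2) and 2 higher (Brk1 and Wasf2) in growth cones, in each genotype. Cyfip2, a large subunit of the complex, was at 526 ± 128 CPM in WT somata and 171 ± 53.3 CPM in WT growth cones (log2 fold change -1.57 ± 0.24, edgeR adjusted p = 0.000258). Brk1, its smallest subunit, was at 190.3 ± 36.1 and 359 ± 44.0 CPM (0.96 ± 0.15, adjusted p = 0.000358).

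Of the planar polarity partners 3 of 9 tested in WT were lower (Fjx1, Fzd3 and Prickle1) and 3 of 10 in libraries labelled KO (Fjx1, Vangl2 and Prickle1), and none was higher. Prickle1 was at 128 ± 31.0 CPM in WT somata and 25.04 ± 13.9 CPM in WT growth cones (log2 fold change -2.31 ± 0.34, edgeR adjusted p = 0.000173).

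The clustered protocadherins, which the symbol rule leaves out, are close relatives of the non-clustered protocadherins in the set, though not of its other members. In WT 28 of 49 tested were lower in growth cones and none higher, and in libraries labelled KO 27 of 47 were lower and none higher. Over all genes 19.7% and 17% were called lower. Of the 58 clustered genes 54 passed the low-count filter between soma genotypes and 13 between growth cone genotypes. Most therefore entered through somata, where they are high, and could hardly be called higher in growth cones. Their summed level was 476 to 899 CPM in WT somata and 73.6 to 129 CPM in WT growth cones, while the 43 members summed to 2121 to 3105 and 967 to 1268 CPM. Median log2 fold changes in WT were -4.38 for the clustered genes, most of them under the filter in growth cones, and -0.44 for the members. The difference between these sets was not tested. None of 54 clustered genes tested was called between soma genotypes.

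Libraries of one group differed from each other more for the members than for genes in general in somata. Over members with a mean of at least 5 CPM the median coefficient of variation was 0.353 for WT somata and 0.268 for those labelled KO, against 0.231 and 0.195 over all such genes. In growth cones it was 0.406 and 0.479, against 0.425 and 0.464. These are descriptions without a test. The exon length per gene also differed, with a median of 8904 bases over 37 of the members against 3484 over 19366 genes.

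Some libraries held very little of particular members, which is stated here after the values were seen. In growth cone 11 labelled KO Cdh7, Cdh12, Pcdh11x and Pcdh18 were at 0.0449, 0.0899, 0.0899 and 0.0449 CPM, while the other 4 libraries of that group held at least 3.52, 5.43, 21.7 and 5.63 CPM. In WT soma 12 Cdh18 and Cdh20 were at 0.0314 CPM each and Cdh12 at 9.60 CPM, against at least 0.479, 8.15 and 33.8 CPM in the other WT somata. WT growth cones 10 and 11 held 0.166 and 0.925 CPM of Cdh12, against 6.52 to 16.5 CPM in the others.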

How the data were processed

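The authors deposited 1 matrix of raw counts per gene, in featureCounts layout per the file headers, and all 20 libraries have a column in it. Per the labels' protocols, cDNA was made with SMART-seq v4 from 1.8 to 3.1 ng of soma RNA or 0.19 to 3.1 ng of growth cone RNA, and libraries with Nextera XT. The submitters' processing notes name Trimmomatic 0.39, STAR 2.7.1a, featureCounts 1.5.0 and the build GRCm39, whereas 54435 of 55487 gene spans in the table equal those of GENCODE M21 on GRCm38, so coordinates are given as GRCm38. Strand use and multi-mapping are not given in the sources used here. A symbol was found for 55141 genes. The table held 0 rows that name no gene and 0 unmatched columns. No pair of replicate libraries agreed within sampling noise (smallest chi-square per degree of freedom 52.7).

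Each comparison was fitted on its own 10 libraries (the interaction on all 20) with edgeR 4.0.16 in R 4.3.3 (filterByExpr with a minimum count of 10, TMM, quasi-likelihood F test), adjusted by Benjamini-Hochberg over all genes tested, with a threshold of 0.05. SE values derive from the F statistic. The fitting script was first tested on simulated counts. Where no library of a group exceeded 3 counts, the fold is a lower bound computed against 3 counts per library. Overlap of groups was counted over genes with over 3 counts in at least 5 of the libraries compared. Exons of 33 members overlap no other gene. Within a compartment the genotypes shared most experiment numbers, and same-numbered libraries correlated weakly in their deviations from the group means (-0.0461 to 0.0964). The main fits did not take the numbers as pairs, and whether the libraries are paired is not settled by these values. Values of every library are given for members called by genotype or with the 3 lowest p there, for up to 8 members per direction called alike in both compartment comparisons, and for the 3 highest RPKM per group. Cdh7 and other members are given beyond this rule after their values were seen. Members and lists (subfamilies, catenins, WAVE complex, planar polarity, cell type markers) were chosen with earlier results of these data known. One further partner list is not reported here. Alternatives were 2 other scalings, no filter, DESeq2 1.42.0, a fit of all 20 libraries, the experiment number as a block, and leaving out each library.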

Additional observations from a re-analysis of the deposited data

Results flagged for a closer look

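Within-group outliers were looked for in 51 groups of 5 libraries, over the 13 members named by the rule for full values, on log2(CPM + 0.5). A library was marked when its gap to the nearest other library exceeded 0.71 of the group's range, and chance alone marks about 1 in 20 groups. There were 2 such values, both low and both in Pcdh18. In WT soma 12 Pcdh18 was at 3.51 CPM, while the other WT somata held 20.3 to 36.3 CPM. In growth cone 11 labelled KO it was at 0.0449 CPM, while the other 4 libraries of that group held 5.63 to 14.2 CPM. No test across the 2 values was made.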

How the results depend on the processing

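In somata edgeR called 2 members and 109 genes by genotype. DESeq2 called 6 members and 402 genes, a fit of all 20 libraries 1 member and 30 genes, and leaving out single libraries gave 1 to 3 members and 67 to 107 genes. With the experiment number as a replicate block it was 1 member and 34 genes, and Cdh4 lost its call (adjusted p = 0.123). Soma numbers 12 and 15 have no partner of the other genotype. The block fit thus took the genotype difference from numbers 14, 22, 25 and 26 alone. Cdh13 was called under all 16 alternatives (adjusted p at most 0.0421). In growth cones 0 members were called under every alternative run, with 11 genes by DESeq2, 7 in the fit of all 20 libraries, 0 with the replicate block and 0 when single libraries were left out. For the interaction DESeq2 called 3 members and 273 genes, the replicate block 0 members and 0 genes, and leaving out single libraries 0 to 1 members and 5 to 12 genes. The cause of these shifts was not tested. The total compartment counts stayed within 1.5 times under every alternative run (11 to 15 members without single libraries for libraries labelled KO, 12 to 15 for WT), while the members called higher moved from 3 to between 2 and 6 in WT and between 1 and 5 in libraries labelled KO. Same-numbered libraries correlated by -0.0461 to 0.0964 in their deviations from the group means, and 2 of 4 numbers in somata and 3 of 5 in growth cones correlated best with their own number. Of the single values for the members given in full, 1072 kept direction and call, 34 lost a call, 9 gained one and 0 changed sign while called. Members near 3 counts cannot be told from absent at this depth.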
